A study of Mus musculus with 20 samples.

Results

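The 10 genes described here encode proteins that neutrophils store in granules or carry in the cytosol, namely *S100a8*, *S100a9*, *Ngp*, *Camp*, *Ltf*, *Elane*, *Mpo*, *Mmp8*, *Lcn2* and *Retnlg*. The list is one of gene names, with no threshold on their values, but it was chosen with earlier results of these data known. All 10 were found among the 54532 genes of the count table. RNA-seq was performed on temporomandibular joint (TMJ) condylar heads, taken with a portion of the subchondral bone, from 20 Acan-Cre;Loxl2 fl/fl mice. All animals carried 2 floxed *Loxl2* alleles and a tamoxifen-inducible Cre driven by the aggrecan promoter, so that recombination was directed at aggrecan-expressing cells. Vehicle was injected into 8 animals (control) and tamoxifen into 12 (labelled knockout), from an age of 6 months, and tissue was taken 4 months later. Males and females were used in both groups, and the labels do not give the sex of each library. The drug was given to one group alone, so tamoxifen and deletion cannot be told apart.

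Neutrophils mature in the bone marrow in steps, and each step fills a different kind of granule. Promyelocytes transcribe the genes of the azurophil (primary) granules, among them *Mpo* (myeloperoxidase, which makes hypochlorous acid) and *Elane* (neutrophil elastase, a serine protease). Myelocytes and metamyelocytes then switch to the genes of the specific (secondary) granules, such as *Ltf* (lactoferrin, an iron-binding protein), *Camp* (the cathelicidin precursor), *Ngp* (neutrophilic granule protein, a cystatin-like relative of cathelicidin), *Lcn2* (lipocalin 2, which captures bacterial siderophores) and *Mmp8* (neutrophil collagenase). *S100a8* and *S100a9* encode the paired calcium-binding proteins of calprotectin, the main cytosolic proteins of neutrophils, and *Retnlg* encodes a resistin-like secreted protein of maturing neutrophils. Several are not exclusive to neutrophils: monocytes also make *S100a8* and *S100a9*, and glandular epithelia make *Ltf* and *Lcn2*. Below, *Mpo* and *Elane* are called early and the other 8 genes late.

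Library totals ran from 11153820 to 27045668 counts, and levels are given in CPM, counts scaled to a common library size after trimmed-mean (TMM) normalisation. The targeted gene did not follow the labels: *Loxl2* averaged 101 CPM ± 27 (SD, n = 12) after tamoxifen and 64.0 CPM ± 30.6 (SD, n = 8) after vehicle, a log2 fold change (log2FC) of 0.64 (SE 0.28, edgeR adjusted p = 0.101). The lowest control levels of *Loxl2* were 28.9 CPM in replicate 6 and 15.9 CPM in replicate 8. The other control libraries had 49.6 to 102 CPM and the libraries labelled knockout 28.5 to 127 CPM. These are counts over the whole gene and all cells of the tissue, and need not show a loss of floxed exons in aggrecan-expressing cells. Animals are therefore named by their labels, and a positive log2FC means a higher level in those labelled knockout. Levels of cartilage genes also varied. *Acan*, the aggrecan gene and a marker of the labelled tissue, had 34 counts in control replicate 6 and 29 in control replicate 8. It had 790 to 4632 in the other control libraries and 92 to 3335 in the libraries labelled knockout. *Col2a1*, the type II collagen gene, had 1182 counts in control replicate 6 and 22 in control replicate 8. It had 5143 to 19446 in the other control libraries and 1178 to 54044 in the libraries labelled knockout. Among the genes that define mature neutrophils, *Ly6g* (the surface antigen used to sort mouse neutrophils) reached at most 14 counts in any control library and at most 105 in any library labelled knockout, and was at 0 in 3 and 4 of them. *Cxcr2*, the chemokine receptor of circulating neutrophils, reached at most 9 and 114 counts. Both were too low for the filter on low counts, which all 10 members passed.

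The genes lie on 6 chromosomes (GRCm38/mm10, coordinates of GENCODE M21). *S100a8* (ENSMUSG00000056054, chromosome 3, 90668978 to 90670035) and *S100a9* (ENSMUSG00000056071, chromosome 3, 90692632 to 90695721) are neighbours, 22.6 kb apart with 0 protein-coding genes of the count table between them. *Camp* (chromosome 9, 109847379 to 109849617), *Ngp* (chromosome 9, 110419747 to 110423012) and *Ltf* (chromosome 9, 111019271 to 111042767) follow each other at gaps of 570 kb and 596 kb, with 8 and 20 protein-coding genes in the gaps, and *Mmp8* lies far from them on chromosome 9 (7558456 to 7568485). *Elane* (chromosome 10, 79886247 to 79888215) starts 3072 bases behind *Prtn3*, the gene of proteinase 3, another azurophil protease. *Mpo* is on chromosome 11 (87793581 to 87804413), *Lcn2* on chromosome 2 (32384633 to 32388252) and *Retnlg* on chromosome 16 (48872621 to 48874496). All 10 are protein-coding.

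Because the late genes moved together from library to library (below), the 250 bases before each RefSeq start (GRCm38.p6) were searched for the sites of factors known for granulocyte genes. C/EBP factors, among them C/EBP epsilon, activate specific granule genes, and PU.1 acts throughout myeloid development. The C/EBP letters TTNNGCAA, read on both strands, were found upstream of 6 of the 10 genes (*Lcn2*, *Ltf*, *Mmp8*, *Ngp*, *Retnlg* and *S100a9*, all of them late), against 9.56% of the 32851 promoter entries of all genes. The PU.1 letters GAGGAA were found upstream of 6 genes (*Elane*, *Lcn2*, *Ltf*, *Mmp8*, *Mpo* and *S100a8*), against 23.3% of all entries, and the RUNX letters TGTGGT upstream of *S100a9* alone, against 14%. No C/EBP match overlapped a PU.1 match. *Camp*, also a specific granule gene, had no match to any of these letters. After subtraction of group means its r with *Ngp* was 0.95, against 0.65 for *Mmp8*, which had C/EBP and PU.1 matches. Whether the matches relate to the shared variation was not tested. Some windows lie within the gene as GENCODE draws it, since its starts lie upstream of the RefSeq starts. The windows below are 30 bases of the gene's own strand and show the C/EBP matches of 4 specific granule genes and 1 PU.1 match of each early gene (*Mpo* has another, at 247 bases before its start), with the matched letters in capitals. The PU.1 matches of *Lcn2*, *Ltf*, *Mmp8* and *S100a8* are not printed, so the windows do not divide early from late genes by motif. A match is a run of letters and does not show binding.
Ngp, chr9:110419659-110419688, plus strand: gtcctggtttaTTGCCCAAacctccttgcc
Ngp, chr9:110419778-110419807, plus strand: tttatgtcaccggcagttcTTGGGCAAggc
Ltf, chr9:111019206-111019235, plus strand: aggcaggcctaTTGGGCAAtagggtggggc
Lcn2, chr2:32387937-32387966, minus strand: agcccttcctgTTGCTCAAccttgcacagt
Mmp8, chr9:7558399-7558428, plus strand: ttaggcagaagTTGCTCAAgatgtagcttt
Mpo, chr11:87793548-87793577, plus strand: tgtggagagagaGAGGAAgttgcctttgtc
Elane, chr10:79886215-79886244, plus strand: tcgtgtcccaggGAGGAAgtagggctgtgg

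All 10 genes had a higher fitted level in the libraries labelled knockout, by log2 fold changes of 1.63 to 2.63, but the libraries of each group differed so much that 1 gene, *Mpo*, passed the test across all genes. The median of the 10 log2 fold changes was 2.14, against -0.02 over the 15984 genes tested, of which 48.1% were positive. At an edgeR adjusted p under 0.05, 1 of 10 members was called higher, where 12% of all tested genes were called higher and 11% lower. Before adjustment, 9 of 10 had a p under 0.05, against 37.0% of all tested genes in either direction. These comparisons describe a list that was chosen with earlier results of these data known, and are no test of it. The standard errors of the members, 0.79 to 1.02 on the log2 scale, were several times the median of 0.17 over all tested genes. In bulk tissue, a change in the number of cells of a type and a change in RNA per cell cannot be told apart, here as in every result below.

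**Figure D1:**
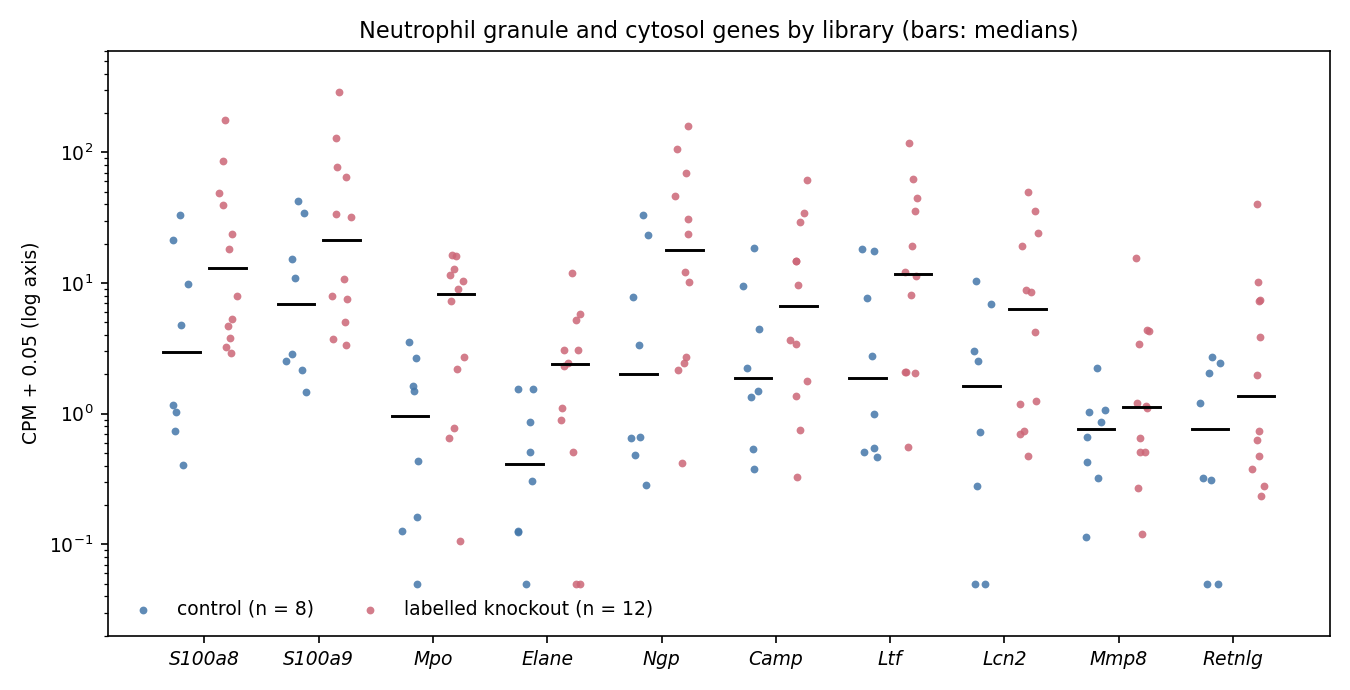
CPM of each gene in every library, on a log axis after addition of 0.05, with blue points for the 8 control libraries, red points for the 12 libraries labelled knockout and black bars for group medians. The red median is above the blue one for all 10 genes, and the groups overlap for each of them.

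Of the early genes, *Mpo* rose. Its lowest, median and highest levels were 0, 0.912 and 3.47 CPM in control and 0.0568, 8.14 and 16.5 CPM in the libraries labelled knockout. A group of 7 libraries labelled knockout lay above the highest control library, while 3 lay below the control median, so the groups overlapped. The means were 1.21 CPM ± 1.30 (SD, n = 8) and 7.46 CPM ± 6.09 (SD, n = 12), a log2FC of 2.63 (SE 0.84, edgeR adjusted p = 0.0281), which is 6.18-fold. The call was lost without control replicate 8 (log2FC 2.47, edgeR adjusted p = 0.0541), and was also lost when both control libraries poorest in *Acan* were left out (2.68, edgeR adjusted p = 0.0689), a choice made after the data had been seen. It was lost as well with the replicate number as a block (edgeR adjusted p = 0.165), in the same 16 libraries when unblocked (0.071) and with an osteoclast covariate (0.814).

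*Elane* followed *Mpo* closely but missed the threshold, at a log2FC of 2.35 (SE 0.89, edgeR adjusted p = 0.0592). Its lowest, median and highest levels were 0, 0.359 and 1.51 CPM in control and 0, 2.34 and 11.8 CPM in the libraries labelled knockout, at counts of up to 22 and up to 239. It passed under the DESeq2 Wald test (adjusted p = 0.0451), which called 11.6% of the genes it tested higher, and without control replicate 5, knockout replicate 4 or knockout replicate 5. In both groups *Mpo* and *Elane* varied together. Over the 8 control libraries Pearson's r was 0.99 (exact permutation p = 9.92e-05, adjusted 0.000298) and Spearman's rho 0.95 (exact permutation p = 0.00114, adjusted 0.00342). Over the 12 libraries labelled knockout r was 0.94 (permutation p = 2e-05, adjusted 8e-05) and rho 0.87 (permutation p = 0.00063, adjusted 0.00252). These p-values were adjusted over 12 relations.

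None of the 8 late genes passed the test over all genes with edgeR, although 7 of them had an unadjusted p under 0.05, and the DESeq2 Wald test called none of them either. *S100a9* was the most abundant member per kilobase of exon, with a median of 13.1 CPM per kb in control and 40.9 CPM per kb in the libraries labelled knockout. Its lowest, median and highest levels were 1.42, 6.85 and 42.6 CPM in control and 3.31, 21.4 and 289 CPM in the libraries labelled knockout, and 4 of 12 libraries exceeded the highest control. The log2FC was 1.98 (SE 0.89, edgeR adjusted p = 0.109). *S100a8*, its partner, ran from 0.352 CPM over a median of 2.92 to 33.4 CPM in control, and from 2.88 over 13.1 to 177 CPM in the other group (log2FC 1.96 with SE 0.92, edgeR adjusted p = 0.125). In 11 of 12 libraries labelled knockout *S100a8* was above the control median. The median level of *S100a8* per kilobase, 4.20 CPM per kb in control and 18.8 CPM per kb in the other group, was below that of *S100a9* in both.

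Among the specific granule genes, *Ngp* had 0.235, 1.97 and 32.9 CPM as lowest, median and highest control level and 0.369, 17.9 and 160 CPM in the libraries labelled knockout, whose counts ran from 8 to 3232. The highest library labelled knockout thus had 434 times the level of the lowest. Against means of 8.66 CPM ± 12.6 (SD, n = 8) and 38.9 CPM ± 50.0 (SD, n = 12), the log2FC was 2.18 (SE 1.01, edgeR adjusted p = 0.121). *Ltf* ran from 0.412 over a median of 1.82 to 18.3 CPM in control and from 0.506 over 11.7 to 119 CPM in the other group (log2FC 2.14 with SE 0.93, edgeR adjusted p = 0.0989). *Camp* had the smallest log2FC, 1.63 (SE 0.88, edgeR adjusted p = 0.183), with medians of 1.82 and 6.63 CPM, and its lowest library of all was one labelled knockout. *Lcn2* had medians of 1.57 and 6.33 CPM and a log2FC of 2.14 (SE 0.98, edgeR adjusted p = 0.117), and 7 of 12 libraries labelled knockout were above the control median.

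The lowest late genes were *Mmp8* and *Retnlg*. *Mmp8* stayed between 0.0645 and 2.19 CPM in control and had a median of 1.08 CPM in the libraries labelled knockout, of which the highest reached 15.6 CPM (log2FC 1.78 with SE 0.79, edgeR adjusted p = 0.104). *Retnlg* had medians of 0.717 and 1.32 CPM, with 6 of 12 libraries labelled knockout above the control median, and its log2FC of 2.49 (SE 1.02, edgeR adjusted p = 0.0821) went with a maximum of 40.4 CPM against 2.65 CPM in control. For all 10 members the groups overlapped, as they did for all but 0.238% of the tested genes.

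**Figure D2:**
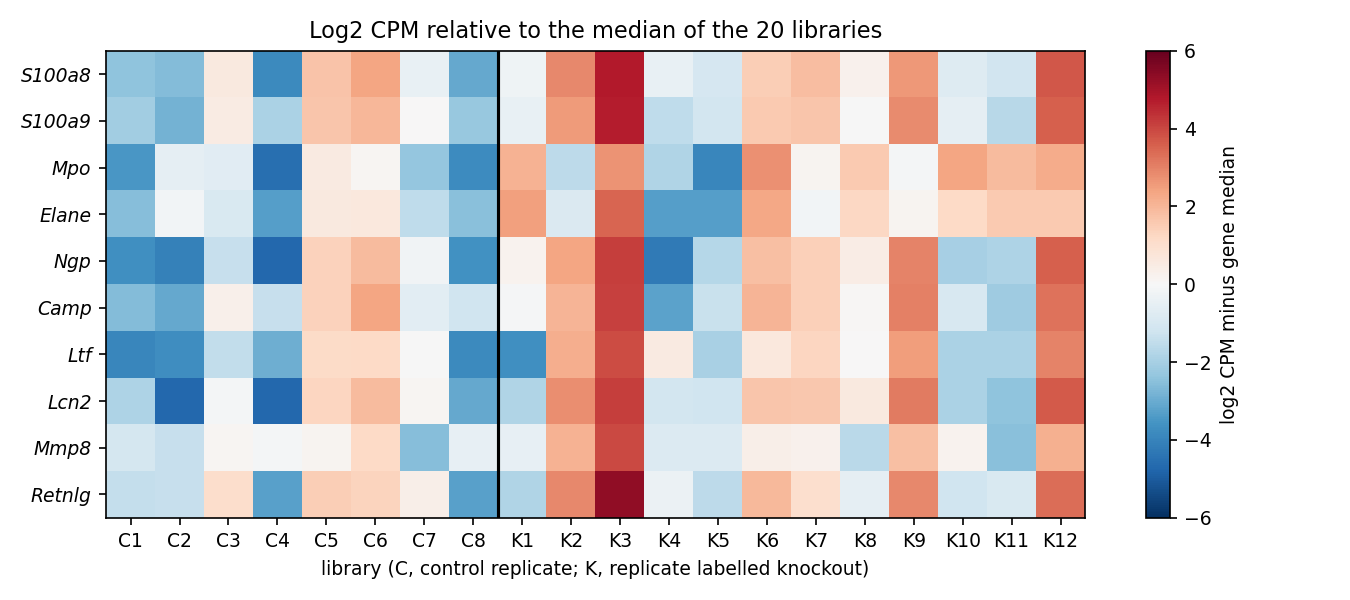
Log2 CPM of each gene in every library minus the gene's median over the 20 libraries, with control replicates (C) left of the line and replicates labelled knockout (K) right of it. Replicates K2, K3, K9 and K12 are high in all 8 late genes, whereas K1 and K11 are high in *Mpo* and *Elane* and near or below the median in most late genes.

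A few libraries carried the late genes. For all 8 of them, the 4 highest libraries labelled knockout were replicates 2, 3, 9 and 12, which held from 79.9% (*Camp*) to 88.8% (*Retnlg*) of the CPM summed over the 12 libraries. Replicate 3 was the highest of all 20 libraries for 9 of the 10 members, the exception being *Mpo*, and it held 34.3% of the sum for *Ngp* and 55.1% for *Retnlg*. The same 4 libraries held 33.9% of the sum for *Mpo* and 45.6% for *Elane*, whose 4 highest libraries were replicates 3, 6, 10 and 12 and replicates 1, 3, 6 and 11. Without replicate 3 the log2 fold changes of the members ranged from 0.97 to 2.47, with *Retnlg* at 1.46, *Mmp8* at 0.97, *S100a8* at 1.29 and *S100a9* at 1.28, and *Mpo* remained the one member called (2.47, edgeR adjusted p = 0.0431).

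Control libraries also differed among themselves. *Ngp* had 344 counts in control replicate 5, 481 in replicate 6 and 120 in replicate 7, but 16, 8, 4 and 8 in replicates 1, 2, 4 and 8, with 58 in replicate 3. Replicate 6, the highest, was one of the libraries with hardly any *Acan*. Without it the log2 fold changes of the members ran from 2.20 to 2.93, and the edgeR adjusted p of the 8 late genes lay between 0.0603 and 0.0864.

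The late genes varied together and the early pair varied together, while the relation between the sets was looser. After subtraction of group means, Pearson's r over the 20 libraries had a median of 0.90 among the 28 pairs of late genes, from 0.65 to 0.97. It was 0.95 for *Mpo* and *Elane*, and had a median of 0.43 among the 16 pairs of an early and a late gene, from 0.20 (*Mpo* and *Mmp8*) to 0.61 (*Elane* and *Ngp*). These values are descriptions, since all genes of a library share its RNA and depth. Low counts bear on them as well: at most 3 counts were found in 4 libraries for *Mpo*, 5 for *Elane*, 3 each for *Mmp8* and *Lcn2* and 2 for *Retnlg*.

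**Figure D3:**
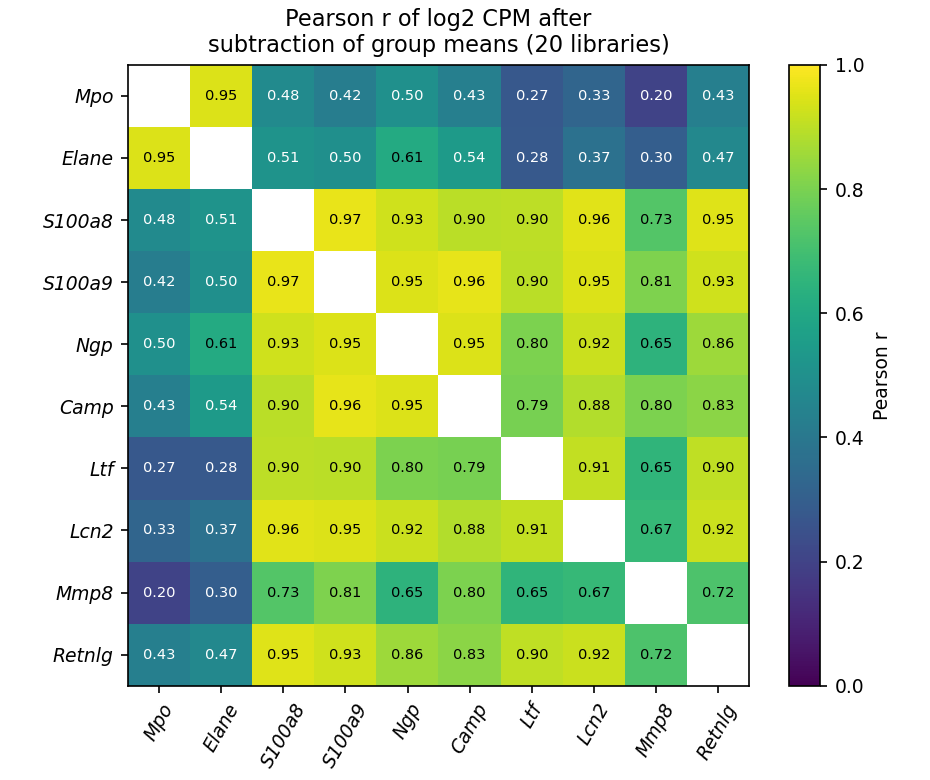
Pearson r of log2 CPM between each pair of the 10 genes over 20 libraries after subtraction of group means. The block of 8 late genes is at 0.65 or more throughout, the early pair is at 0.95, and no early gene exceeds 0.61 with a late one.

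Within groups, *S100a8* and *S100a9* gave r = 0.96 over the 8 control libraries (exact permutation p = 0.00134, adjusted 0.00321; rho = 0.83, exact permutation p = 0.0154, adjusted 0.0264) and r = 0.99 over the 12 libraries labelled knockout (permutation p = 2e-05, adjusted 8e-05; rho = 0.97). *Ngp* and *Camp* gave r = 0.89 in control (exact permutation p = 0.00379, adjusted 0.00759; rho = 0.90) and 0.99 in the other group (permutation p = 1e-05, the smallest that 100000 resamples can give, adjusted 8e-05; rho = 0.98). When the 2 libraries farthest from the first gene's median were left out, r was 0.89 and 0.98 for the calprotectin pair, 0.67 and 0.98 for *Ngp* and *Camp*, and 0.97 and 0.90 for *Mpo* and *Elane*. Across the early and late sets, *Ngp* and *Mpo* gave r = 0.74 in control (exact permutation p = 0.0472, adjusted 0.063; rho = 0.69, exact permutation p = 0.0694), which fell to 0.44 without the 2 farthest libraries. In the libraries labelled knockout the same pair gave r = 0.36 (permutation p = 0.245, adjusted 0.267; rho = 0.31, permutation p = 0.322), and 0.08 without the 2 farthest libraries.

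The counts of *Mpo* and *Ngp* show how the early and late genes were combined in single animals. Among the libraries labelled knockout, replicate 2 had 22 *Mpo* and 1409 *Ngp* counts, and replicate 9 had 47 and 1526. Replicate 10 had 156 *Mpo* and 26 *Ngp* counts, replicate 11 had 128 and 34, and replicate 1 had 225 and 220. Replicates 3 and 12 were high in both, with 324 and 3232 counts and with 229 and 2115 counts, and replicate 5 was low in both, with 1 and 47. *Mpo* was above *Ngp* on the log2 CPM scale in 4 of 12 libraries labelled knockout and in 1 of 8 control libraries, replicate 2, which had 29 and 8 counts.

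**Figure D4:**
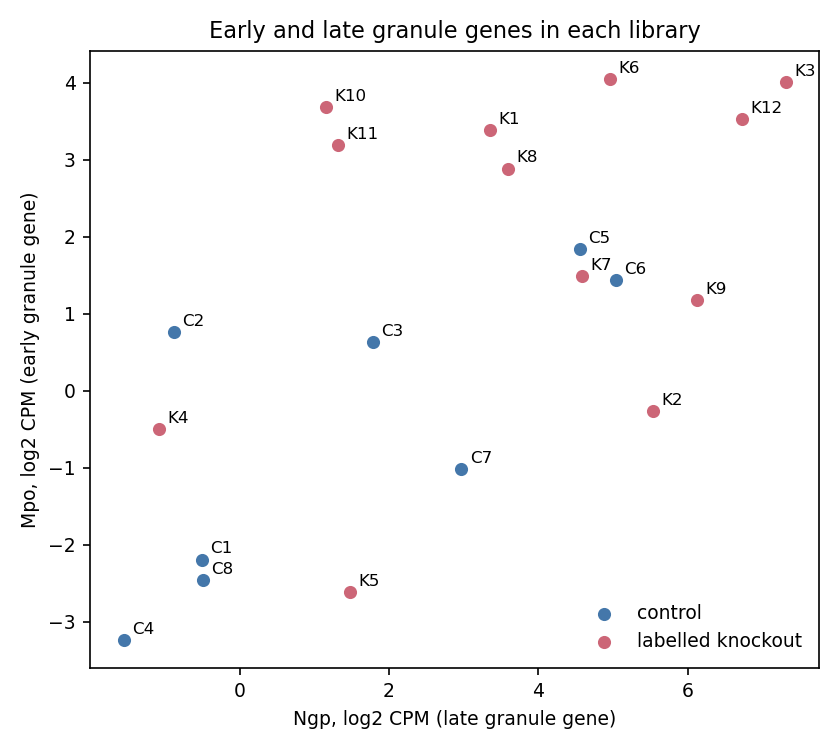
*Mpo* against *Ngp* in log2 CPM, with 1 point per library labelled by group (C, control; K, labelled knockout) and replicate. K10 and K11 sit at high *Mpo* and low *Ngp*, K2 and K9 at high *Ngp* with less *Mpo*, and K3 and K12 at the top right.

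The group difference of early genes was then compared with that of late genes, by the within-library difference in log2 CPM. *Mpo* minus *Ngp* averaged -1.76 ± 2.70 (SD, n = 12) in animals labelled knockout against -1.90 ± 1.74 (SD, n = 8) in control, a difference of 0.14 (exact permutation p = 0.897, two-sided, over all assignments of the 20 libraries). *Elane* minus *Ngp* was -2.51 ± 1.73 (SD, n = 8) and -3.15 ± 2.28 (SD, n = 12), a difference of -0.64 (exact permutation p = 0.505). *Mpo* minus *S100a8* differed by 0.41 and *Elane* minus *S100a8* by -0.37 (exact permutation p = 0.680 and 0.688). All 4 had an adjusted p of 0.897, so a difference between early and late genes in how far they were shifted between the groups was not detected at this spread. *Mpo* and *Elane* had at most 3 counts in 4 and 5 libraries, where the prior count weighs on these differences. With a prior count of 0.5, *Mpo* minus *Ngp* differed by 0.42 and *Mpo* minus *S100a8* by 0.71. *Elane* minus *Ngp* then differed by -0.55 and *Elane* minus *S100a8* by -0.26, and all 4 had an adjusted permutation p of 0.802. The edgeR log2FC of *Elane*, 2.35, was above those of *Ngp* (2.18) and *S100a8* (1.96), unlike these negative differences. The sign of *Mpo* minus *Ngp* turned in 6 of the 20 sets that each left out 1 library. In the libraries labelled knockout *Mpo* minus *Ngp* ran from -5.81 in replicate 2 to 2.53 in replicate 10, whereas control ran from -3.99 to 1.64.

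Pairs of late genes departed from each other in single libraries. *Ltf* minus *Ngp* in log2 CPM had a median of -0.39 over the 20 libraries, and *Ltf* exceeded *Ngp* in 3 of them. In knockout replicate 4, *Ltf* had 245 counts while *Ngp* had 8, *Camp* 6, *Mpo* 13 and *Elane* 0, a difference of 4.59. Knockout replicate 1 had the opposite pattern, with 11 *Ltf* and 220 *Ngp* counts (-4.06), together with 15 *Lcn2*, 4 *Retnlg* and 73 *Camp* counts. In every other library but control replicate 4, which had 16 and 4 counts, the difference lay between -1.36 and 0.14. *S100a9* exceeded *S100a8* in 19 of 20 libraries, the exception again being knockout replicate 4, with 80 and 101 counts.

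The genes with the most similar patterns were looked up for 1 late and 1 early member. Over 20 libraries, after subtraction of group means, the 5 protein-coding genes outside the members with the highest r to *Ngp* were *Chil3* (a chitinase-like secreted protein, r = 0.97), *Itgb2l* (r = 0.89), *Cd177* (a neutrophil surface glycoprotein, r = 0.89), *Arhgap25* (a Rac GTPase-activating protein of blood cells, r = 0.85) and *Pglyrp1* (a peptidoglycan-binding granule protein, r = 0.82). Of these, *Arhgap25* was called, with 2.69 CPM ± 0.876 (SD, n = 8) and 4.22 CPM ± 1.34 (SD, n = 12), a log2FC of 0.64 (SE 0.22, edgeR adjusted p = 0.0378). For *Mpo* they were *Prtn3* (r = 0.89), *Ctsg* (cathepsin G, an azurophil protease, r = 0.81), *Ly6c2* (a monocyte and progenitor surface protein, r = 0.73), *Asic3* (an acid-sensing ion channel, r = 0.70) and *Prr11* (a cell cycle gene, r = 0.69). *Prtn3* rose, averaging 5.01 CPM ± 3.94 (SD, n = 12) against 1.21 CPM ± 1.02 (SD, n = 8), with a log2FC of 2.04 (SE 0.66, edgeR adjusted p = 0.0293), and *Prr11* by 1.02 (SE 0.32, edgeR adjusted p = 0.0267).

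Other genes of the neutrophil programme were counted from lists. For these and all lists below, the share over all tested genes was 12% called higher and 11% called lower. Of 4 further azurophil genes, 2 were tested and *Prtn3* was called higher, while *Ctsg* had a log2FC of 2.38 (SE 0.88, edgeR adjusted p = 0.0551). Of 13 further genes of specific and gelatinase granules, 10 were tested, 6 were called higher, none lower, and their median log2FC was 1.5. The called genes were *Adam8*, *Cybb*, *Hp*, *Itgam*, *Lyz2* and *Mmp9*, each of which macrophages, osteoclasts or other cells also express (*Mmp9* is on the osteoclast list too). The 4 that did not pass were *Chil3* (1.54, edgeR adjusted p = 0.297), *Cd177* (2.29, edgeR adjusted p = 0.0884), *Itgb2l* (2.19, edgeR adjusted p = 0.0987) and *Pglyrp1* (1.46, edgeR adjusted p = 0.138), with standard errors of 0.71 to 1.05 against 0.23 to 0.57 for the called genes. Of 18 genes of mature neutrophils, 4 were tested and *Hdc*, the histamine-forming enzyme that mast cells express as well, was called higher (1.90 with SE 0.45, edgeR adjusted p = 0.00596). *Csf3r*, the receptor of the granulocyte growth factor G-CSF, had 1.45 (SE 0.56, edgeR adjusted p = 0.0653).

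Among 8 transcription factors of granulocyte development, *Cebpa*, *Cebpd*, *Runx1* and *Spi1* were called higher and none lower. *Spi1*, which encodes PU.1 and is also needed by macrophages and osteoclasts, rose to 29.6 CPM ± 18.2 (SD, n = 12) against 6.79 CPM ± 4.18 (SD, n = 8), at a log2FC of 2.11 (SE 0.38, edgeR adjusted p = 0.00144). The 4 that did not pass were *Cebpb* (-0.11, edgeR adjusted p = 0.691), *Irf8* (0.44, edgeR adjusted p = 0.141), *Cebpe* and *Gfi1*. *Cebpe* reached at most 17 counts in control and 34 counts in the other group (log2FC 1.0 with SE 0.75, edgeR adjusted p = 0.349), and *Gfi1* had a log2FC of 1.27 (SE 0.62, edgeR adjusted p = 0.142). Of 7 genes of neutrophil production and recruitment, 2 were tested and none was called. *Cxcl12*, the chemokine that retains neutrophils in the marrow, had 166 CPM ± 42.1 (SD, n = 8) and 164 CPM ± 34.0 (SD, n = 12), and its receptor gene *Cxcr4* had a log2FC of 0.22 (edgeR adjusted p = 0.559). *Csf3* and the neutrophil-attracting chemokines *Cxcl1*, *Cxcl2*, *Cxcl3* and *Cxcl5* were too low for the filter, each with a mean under 1 CPM in both groups. Of 11 receptors and inhibitors of the members' products, 9 were tested and 3 were called higher, the low-density lipoprotein receptor-related gene *Lrp1* (0.74) and the metalloproteinase inhibitors *Timp1* (1.52) and *Timp2* (0.84). *Tlr4*, a receptor of calprotectin, had 0.35 (edgeR adjusted p = 0.207), and *Slpi* and *Serpinb1a*, inhibitors of elastase, had 0.70 and 0.15 (edgeR adjusted p = 0.288 and 0.595).

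Markers of other marrow and bone cells did not all move with the members. None of the 10 tested genes of the erythroid list passed and all 10 had a negative log2 fold change, with a median of -0.99, and their summed level ran from 281 to 1487 CPM in control and from 131 to 867 CPM in the libraries labelled knockout. The 7 tested B cell genes were negative too, with a median of -0.79, and none passed. All 8 osteoclast genes were called higher, with a median of 2.77, and their summed level ran from 110 to 1345 CPM in control and from 572 to 7904 CPM in the other group. Of 7 monocyte and macrophage genes, 4 were called higher (*Adgre1*, *Cd68*, *Csf1r* and *Mrc1*), and the summed level ran from 23.0 to 142 CPM and from 93.5 to 455 CPM. Within groups, *Ngp* and the erythroid gene *Alas2* gave r = 0.75 in control (exact permutation p = 0.0261, adjusted 0.0448; rho = 0.76, adjusted 0.0551; r = 0.82 without the 2 farthest libraries) and 0.41 in the libraries labelled knockout (permutation p = 0.186, adjusted 0.223; rho = 0.50, permutation p = 0.0987), the latter 0.15 without the 2 farthest libraries. *Ngp* and the B cell gene *Cd79a* gave r = 0.25 in control (exact permutation p = 0.567; rho = 0.14), which became 0.73 without the 2 farthest libraries, and 0.61 in the other group (permutation p = 0.0366, adjusted 0.0549; rho = 0.69, permutation p = 0.015, adjusted 0.0264), the latter 0.41 without the 2 farthest libraries.

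The calls of the members depended on which of these cell types entered the fit. With the erythroid list as covariate, all 10 members were called higher, at log2 fold changes of 2.18 to 3.19 and edgeR adjusted p from 0.016 to 0.0349, where 10.6% of the tested genes were called higher, 9.6% lower and 20.2% in either direction. With the osteoclast list as covariate, none was called, at log2 fold changes of 1.02 to 1.5 and edgeR adjusted p from 0.814 to 0.92, with 0 members at an unadjusted p under 0.05. In that fit 0 genes of the whole table were called and 1277 had an unadjusted p under 0.05. The osteoclast list itself differed between the groups, so that its level and the label cannot be told apart in that fit. The erythroid list leaned with the label too, with all 10 of its tested genes negative, though none passed. The erythroid fit is therefore not free of this limit either. The part of any of these cell types in the difference of the members was not tested.

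**Figure D5:**
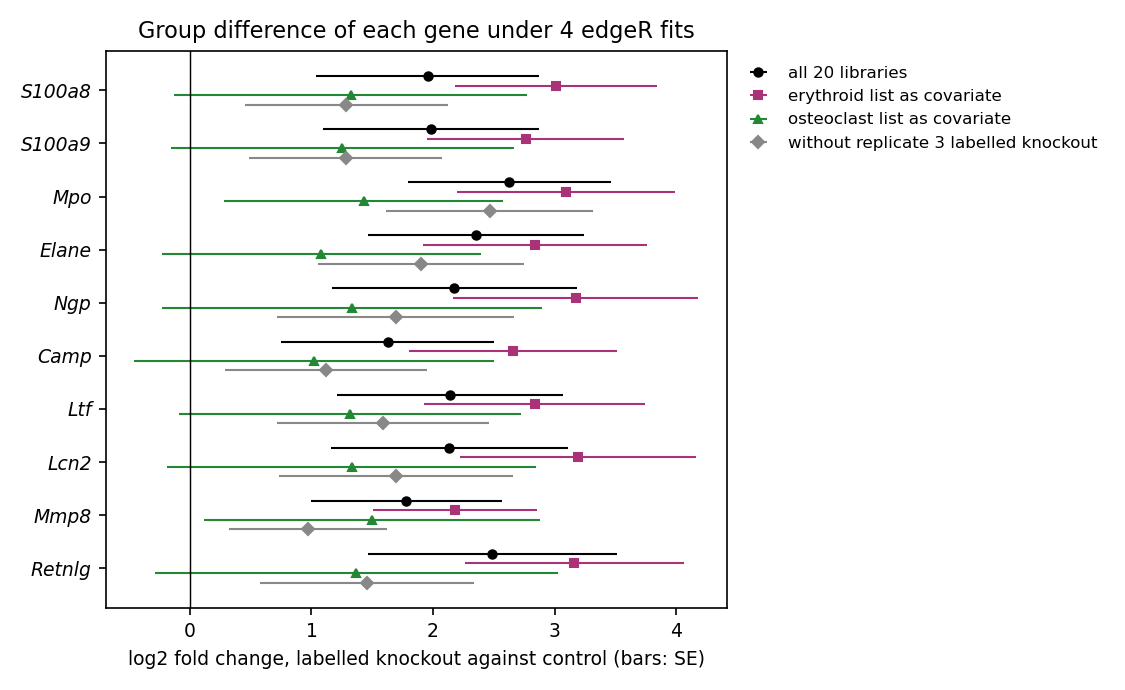
Log2 fold change of each gene with its standard error under 4 edgeR fits, with the line at 0 marking no difference. All values are positive, the erythroid covariate gives 2.18 to 3.19, the osteoclast covariate 1.02 to 1.5, and omission of replicate 3 labelled knockout lowers each of the 10 values.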

How the data were processed

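The authors deposited 1 table of raw read counts per Ensembl gene, with a column for each of 8 control and 12 libraries labelled knockout. They trimmed paired-end Illumina reads, mapped them to mm10 and counted with featureCounts; the aligner, annotation release, strand setting and treatment of multi-mapping reads were not given in the sources used here. Of 54532 genes, 54495 were matched by identifier to GENCODE M21 (same build) for symbols, coordinates and exon lengths. Groups and replicate numbers came from sample titles.

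Groups were compared by edgeR 4.0.16 under R 4.3.3 (filterByExpr, TMM, quasi-likelihood F-test, two-sided, Benjamini-Hochberg over 15984 genes, threshold 0.05), the study's DESeq2 Wald test (version 1.42.0) being an alternative. A prior count of 2 was added for log2 CPM. Within-library differences were tested by exact permutation, correlations by permutation (all pairings of 8 libraries, 100000 resamples of 12). The fit was tested on simulated counts. The smallest chi-square between 2 libraries was 32.9 per degree of freedom, so no library was duplicated. The members and gene lists (1 gene, *Ahsp*, not matched) were chosen with earlier results of these data known. Genes named are the members, *Loxl2*, list genes, and the 5 nearest patterns to *Ngp* and *Mpo*. Other alternatives were scaling, filters, robust dispersion, replicate block, erythroid or osteoclast covariates and omission of each library. Promoter sequences are RefSeq's (GRCm38.p6), matched for all 10 members.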

Additional observations from a re-analysis of the deposited data

Results flagged for a closer look

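A total of 14 values were examined for a control library far from the other 7, by the gap to its neighbour over the range of the 8, and 2 stood out. The limit used flags about 1 in 20 where values are normal and independent. Most CPM values here are skewed and the genes are correlated, so that rate need not apply. *Mmp8* was highest at 2.19 CPM in control replicate 6, which was also the highest control library for *S100a8*, *S100a9*, *Ngp*, *Camp*, *Ltf*, *Lcn2* and *Elane*. *Mpo* minus *S100a8* was highest at 0.63 on the log2 scale in control replicate 2, which had 29 *Mpo* and 18 *S100a8* counts.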

How the results depend on the processing

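Every member kept a positive log2 fold change in all alternatives run. The number of members called higher, 1 with all libraries, was 2 with the DESeq2 Wald test, 10 with the erythroid covariate and 0 with the osteoclast covariate, with the replicate block, in the same 16 libraries when unblocked, and without the 2 control libraries lowest in *Acan*. It ran from 0 to 2 over the 20 omissions of 1 library, and the number called lower was 0 throughout. Genes called over the table, 3673, fell to 1786 with the replicate block (replicate numbers 1 to 8, 16 libraries, in which 3280 were called when unblocked), 1703 without those 2 control libraries and 0 with the osteoclast covariate, and ran from 2551 to 4181 over single omissions. Same-numbered libraries correlated from -0.36 to 0.17 in their deviations from group means and none was the best match of its number, so the numbers were not taken as pairs. *Mpo* minus *Ngp* changed sign to -0.16 without those 2 control libraries and ran from -0.25 to 0.65 over single omissions, and *Elane* minus *S100a8* ran from -0.68 to 0.0102. With a prior count of 0.5, *Ngp* and *Cd79a* in the libraries labelled knockout gave r = 0.62 and passed (adjusted permutation p = 0.0491). The cause of these changes was not tested, beyond the smaller number of libraries in some of them. The unblocked fit of the 16 libraries and the omission of 2 control libraries were chosen after the data had been seen. At the floor of 3 counts, *Elane*, *Mpo*, *Lcn2*, *Mmp8* and *Retnlg* cannot be told from absent in 2 to 5 libraries each.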

Other observations

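Lists of other blood and tissue cells gave the following values, where 12% of all tested genes were called higher and 11% lower. None of 5 eosinophil granule genes was tested, and their summed level stayed between 0 and 4.41 CPM in all libraries. Of 6 megakaryocyte and platelet genes, 4 were tested and none passed. Of 5 mast cell genes, 4 were tested and all 4 were called higher, with a median log2 fold change of 3.41. Of 7 chondrocyte genes, 5 were tested and none passed. All 6 skeletal muscle genes were tested and had a negative log2 fold change, with a median of -0.64, and *Ckm* and *Mylpf* were called lower. The summed level of the muscle genes had a median of 57724 CPM in control and 43902 CPM in the libraries labelled knockout. For the chondrocyte genes these medians were 2215 and 2737 CPM. What the muscle RNA contributes to the levels of other genes was not tested.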
